A study of Mus musculus with 2 samples.

Results

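The 40 genes described here drive or mark the steps of the cell division cycle, and they were found by symbol among the 32285 genes of the deposited count matrices, where all 40 were present. They fall into 22 genes of G2 and mitosis (the G2/M genes), 14 genes of the start of DNA replication and of nucleotide supply (the G1/S genes), the 3 D cyclins Ccnd1, Ccnd2 and Ccnd3, and the chromatin protein gene Hmgb2. Brain cells of female mice were counted by droplet single-cell RNA sequencing of transcript 3′ ends, in which each transcript carries a cell barcode and a unique molecular identifier (UMI). Both groups of mice carried human APOE in place of mouse Apoe, E3/E3 in the APOE3 library (E3) and E4/E4 in the APOE4 library (E4), at 11 to 12 months of age (labelled middle_aged) and with no other treatment named. Right hemispheres without brainstem and cerebellum from 3 mice per genotype were pooled before dissociation with warmed enzymes, so that each genotype was 1 library and no comparison between them has a replicate or a test. Genotype therefore cannot be told apart from the pool of mice, the library preparation or the Cell Ranger version. All intervals below are 95% intervals that cover counting error only.

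After the study's stated filter on UMIs and mitochondrial share, 11288 E3 cells and 13528 E4 cells were used, 24816 in all. The median depth over all barcodes was 3784 UMIs in E3 and 4085 in E4. Of 46 barcodes found in both libraries, 44 passed the filter, and 2 of the cells called dividing below had such a barcode. The labels describe the material as non-neuronal brain cells. Cells were clustered without 282 cell cycle and histone genes, and clusters were called by the markers they held, for example neuroprogenitor-like from 9 of 10 neuroprogenitor markers with Dlx6os1, Igfbpl1, Dlx5, Sp8 and Dcx in the lead. Clusters without a clear name are given by number.

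A dividing cell copies its DNA in S phase and separates the copies in mitosis, and the gaps between them are G1 and G2. D cyclins act with the kinases Cdk4 and Cdk6 on the retinoblastoma proteins, and E2F factors then switch on the G1/S genes, among them E cyclins, the licensing factor Cdc6, the replicative helicase Mcm2 to Mcm7, the sliding clamp Pcna and the nucleotide enzymes Rrm1, Rrm2 and Tyms. Cyclin A and B with Cdk1 carry the cell into mitosis, where Aurka, Aurkb and Plk1 are kinases, Bub1 and Bub1b are checkpoint proteins, Kif11, Kif23 and Cenpe are motors, and Cdc20 and Ube2c work with the ligase that ends mitosis. In the adult mouse brain, cells of the subventricular zone and the dentate gyrus are known to go on dividing and to yield neuroblasts, while most neurons, astrocytes and ependymal cells are out of cycle.

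Promoters of the 2 phase groups are known to differ in their elements. Many G2/M genes hold a cell cycle genes homology region (CHR) near the start with CCAAT boxes before it, and many G1/S genes hold E2F sites. RefSeq promoters of GRCm38.p6, from 250 bases before to 50 after the start, were given for 33 of the 40 genes (19 G2/M, 12 G1/S, Ccnd3 and Hmgb2) and for 20039 genes in all. They are shown in part for 4 G2/M genes and 2 G1/S genes to let these elements be seen, as the 250 bases before the start, 5′ to 3′ on the gene's strand. In the first 4, capitals mark TTTGAA or TTTAAA and CCAAT on either strand. The E2F site was searched in 4 forms on either strand. The first form was TTCCCGC. A further form, with the same ends, was TTCGCGC. The third of the forms was TTGCCGC. The last form searched was TTGGCGC. In the last 2 promoters capitals mark these forms, and matches that overlap make 1 run.

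Cdc20 (chr4:118437344-118437593, minus strand): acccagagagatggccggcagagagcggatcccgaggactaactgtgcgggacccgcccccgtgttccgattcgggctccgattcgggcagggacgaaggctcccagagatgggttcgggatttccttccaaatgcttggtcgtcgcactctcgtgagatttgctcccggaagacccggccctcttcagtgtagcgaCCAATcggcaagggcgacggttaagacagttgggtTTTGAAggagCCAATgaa
Ccnb1 (chr13:100786487-100786736, minus strand): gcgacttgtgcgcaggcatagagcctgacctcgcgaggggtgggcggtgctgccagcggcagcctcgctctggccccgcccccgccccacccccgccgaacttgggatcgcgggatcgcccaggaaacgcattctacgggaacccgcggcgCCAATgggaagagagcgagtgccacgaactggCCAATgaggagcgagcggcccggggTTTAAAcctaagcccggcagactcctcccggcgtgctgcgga
Top2a (chr11:99024190-99024439, minus strand): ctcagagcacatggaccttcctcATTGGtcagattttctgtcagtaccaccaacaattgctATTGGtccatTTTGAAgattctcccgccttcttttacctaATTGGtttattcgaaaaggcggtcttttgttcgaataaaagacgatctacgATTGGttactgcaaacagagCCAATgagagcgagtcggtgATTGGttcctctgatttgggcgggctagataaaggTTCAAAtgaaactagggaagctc
Kif11 (chr19:37376132-37376381, plus strand): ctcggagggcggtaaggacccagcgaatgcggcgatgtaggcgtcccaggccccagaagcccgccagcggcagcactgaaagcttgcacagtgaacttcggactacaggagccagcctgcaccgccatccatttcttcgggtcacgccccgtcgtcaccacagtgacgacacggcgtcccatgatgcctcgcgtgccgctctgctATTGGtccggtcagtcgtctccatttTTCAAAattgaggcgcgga
Mcm5 (chr8:75109259-75109508, plus strand): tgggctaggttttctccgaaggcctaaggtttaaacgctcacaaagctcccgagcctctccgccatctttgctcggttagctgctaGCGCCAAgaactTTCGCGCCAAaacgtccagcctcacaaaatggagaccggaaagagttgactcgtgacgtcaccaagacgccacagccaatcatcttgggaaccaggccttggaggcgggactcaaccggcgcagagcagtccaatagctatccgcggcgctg
Mcm6 (chr1:128359706-128359955, minus strand): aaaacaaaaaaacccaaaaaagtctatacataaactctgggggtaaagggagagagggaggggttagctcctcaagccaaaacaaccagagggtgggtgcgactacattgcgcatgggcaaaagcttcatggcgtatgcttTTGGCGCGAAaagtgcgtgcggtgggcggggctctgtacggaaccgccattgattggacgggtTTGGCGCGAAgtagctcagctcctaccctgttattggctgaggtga

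In Cdc20, the latest gene in the order given below, the CHR letters TTTGAA began 18 bases before the start, between CCAAT boxes that began 53 and 8 bases before it. Ccnb1 held the variant TTTAAA, 42 bases before the start, with CCAAT boxes at 99 and 67. Top2a held 6 CCAAT boxes and 2 CHR matches, and Kif11 held 1 CHR match at 19 bases and 1 CCAAT box at 45. Mcm5 and Mcm6, which encode helicase subunits, held 3 and 4 E2F matches.

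Over the whole window of 300 bases, TTTGAA was found in 15 of 19 G2/M promoters, in 2 of 12 G1/S promoters and in 16.4% of all promoters. Either of the CHR forms was found in 18 of 19 G2/M promoters (94.7%), in 5 of 12 G1/S promoters and in 25.5% of all. CCAAT was found in 18 of 19 G2/M promoters, in 9 of 12 G1/S promoters and in 38.4% of all. A CHR form together with CCAAT was found in 17 of 19 G2/M promoters, in 4 of 12 G1/S promoters and in 10.2% of all. The E2F letters were found in 7 of 12 G1/S promoters (58.3%), in 3 of 19 G2/M promoters and in 11.5% of all. The GC box GGGCGG, on either strand, was found in 16 of 19 G2/M promoters, 9 of 12 G1/S promoters and 43.4% of all. When the window was cut to the 200 bases before the start, a CHR form was found in 11 of 19 G2/M promoters (57.9%) against 18.3% of all, and CCAAT was still found in 18 of 19. In that window TTTGAA was found in 7 of 19 G2/M promoters (36.8%), a CHR form together with CCAAT in 11 of 19, and the E2F letters in 5 of 12 G1/S promoters (41.7%). A match is a match of letters and not evidence of binding.

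A cell was called dividing when it held a UMI of at least 3 different G2/M genes. The call was met by 105 of 11288 E3 cells (0.930%, 0.761 to 1.12%). In E4 it was met by 132 of 13528 cells (0.976%, 0.817 to 1.16%). The intervals overlap almost wholly, so no difference between the libraries was detectable at this depth.

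Dividing cells were concentrated in the neuroprogenitor-like cluster, which held 143 of the 237 called cells but only 652 of the 24816 cells. In E3, 61 of 306 neuroprogenitor-like cells were called (19.9%, 15.6 to 24.9%). In E4, 82 of 346 were called (23.7%, 19.3 to 28.5%), and the intervals overlap. The class gave 58.1% of the called E3 cells and 62.1% of the called E4 cells. These cells carried a broad program, with a median of 17 of the 22 G2/M genes per called cell in each library and at least 10 in 51 of 61 E3 and 59 of 82 E4 cells.

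Most of the other named classes held few called cells. Microglia are the phagocytes that live within brain tissue. Of microglia-like cells, 6 of 3045 in E3 (0.197%, 0.0723 to 0.428%) and 13 of 3673 in E4 (0.354%, 0.189 to 0.604%) were called. The intervals overlap. The 6 E3 cells held a median of 16 G2/M genes and the 13 E4 cells a median of 10, and 4 of the 19 were at the threshold of 3. All 19 held at least 3 of 8 microglia markers and none held 3 neuroprogenitor markers. The unnamed cluster 5, whose best match was microglia with 5 of 8 markers, held 4 further called cells. Of these, 3 held at least 3 microglia markers, and their median depth was 980 UMIs. Macrophage-like cells gave 2 of 198 E3 cells (1.01%) and 5 of 223 E4 cells (2.24%), and of these 7 cells, 3 held at least 3 macrophage markers, 2 held at least 3 markers of T or NK lymphocytes and 5 held at least 3 microglia markers. The macrophage-like class is mixed. Of its other 414 cells, 298 held at least 3 macrophage markers and 43 at least 3 lymphocyte markers, and at a finer clustering 285 cells were macrophage-like and 137 were T or NK lymphocyte-like. Astrocyte-like cells gave 0 of 4058 in E3, which allows a share of called cells of up to 0.0739%, and 1 of 4581 in E4, a cell of 1121 UMIs with 3 G2/M genes. Of the 4058 cells, 1395 had under 2000 UMIs, and a dividing cell of low depth can miss the call. Of 225 mural-like cells none was called. Endothelial-like cells gave 3 of 2258, oligodendrocyte-like cells 3 of 1611, and 1 E3 cell in the erythroid-like class held all 22 G2/M genes. No class of oligodendrocyte precursors was named. A cluster of 175 cells led by Gpr17 and Tnr was left out, since 46.9% of its cells were marked as doublets. At the finer clustering 97 cells were oligodendrocyte precursor-like, and the called cells among them were not counted. All clusters left out for doublets held 1 called cell together.

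An unnamed cluster (number 22), led by Myoc, Thbs4 and Gfap, held dividing cells in both libraries. In E3 10 of 134 of its cells were called (7.46%), and in E4 7 of 115 (6.09%). The 17 called cells held a median of 14 G2/M genes. Of them, 15 held at least 3 neuroprogenitor markers and 10 held at least 3 astrocyte markers. Among the other 232 cells of the cluster, 29 held 3 neuroprogenitor markers and 210 held 3 astrocyte markers. Such counts rise with depth, and the called cells had a median of 11242 UMIs against 5394.5 in the others. Scaled to the total UMIs of the cells (CPM), the astrocyte markers summed to 987 CPM in the called cells and 11680 CPM in the others. The neuroprogenitor markers summed to 2460 CPM in the called cells and 615 CPM in the others. At this scale the called cells were lower in astrocyte markers and higher in neuroprogenitor markers.

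Where dividing cells were placed depended on whether cell cycle genes took part in the clustering. With those genes kept, 14 of the 19 called microglia-like cells and 12 of the 17 called cells of cluster 22 moved to the class called neuroprogenitor-like. That class then joined a cluster of 524 cells, led by Adarb2 and Dlx6os1, and a cluster of 165 cells. The cluster of 165 cells was led by cell cycle and histone genes such as Hmmr and Hist1h3c. Which of these clusters the cells joined was not counted, so the move does not show a neuroprogenitor identity. With those genes kept, the called share of microglia-like cells was 0.0328% in E3 and 0.109% in E4.

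**Figure D1:**
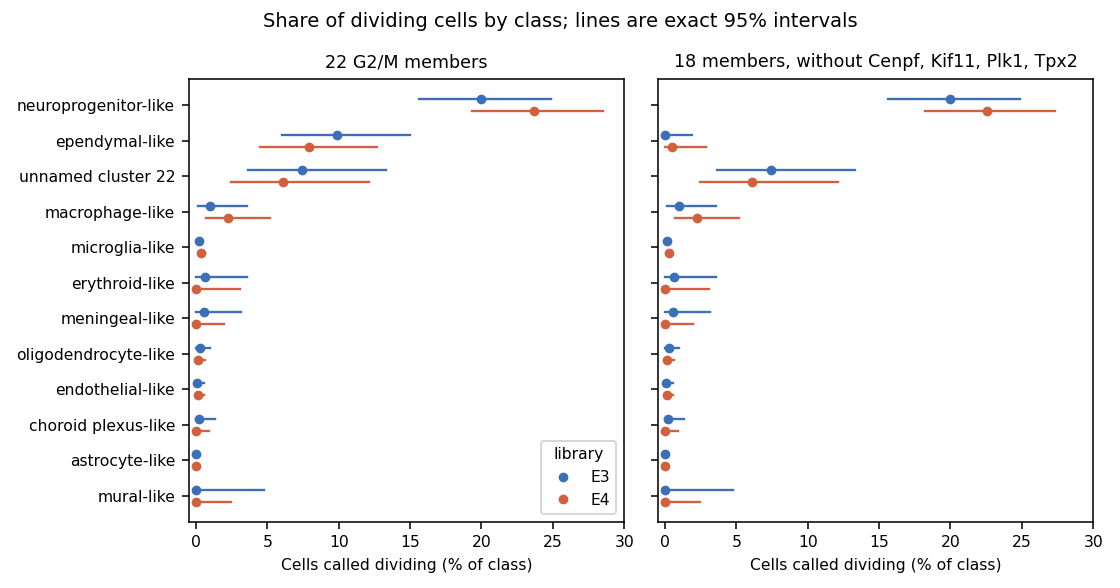
Percent of the cells of each class called dividing (horizontal axis; points for E3 and E4, lines for exact 95% intervals), on the left with all 22 G2/M genes and on the right without Cenpf, Kif11, Plk1 and Tpx2. Neuroprogenitor-like cells stay near 20% or above on both sides, while ependymal-like cells go from 9.90% and 7.89% to 0 and 0.526%.

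Ependymal-like cells, the ciliated lining of the ventricles, met the call in 19 of 192 cells in E3 (9.90%, 6.06 to 15.02%) and in 15 of 190 in E4 (7.89%, 4.49 to 12.7%). They did so with few genes. The median was 3 G2/M genes per called cell, and 19 of 19 E3 and 14 of 15 E4 cells had at most 5. In these 34 cells the microtubule motor gene Kif11 was found in 27 and the centromere protein gene Cenpf in 28. Plk1 was found in 17 and the spindle factor gene Tpx2 in 16. The proliferation marker Mki67 was found in 1 of them, Top2a in 5 and Cenpe in 0.

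The same few genes had a level across the whole class. Kif11 had a level of 32.8 CPM (UMIs of the gene scaled to the total UMIs of the class) in E3 ependymal-like cells and 43.4 CPM in those of E4, with a UMI in 28.1% and 31.6% of the cells. Cenpf had 24.4 and 37.6 CPM there, and Tpx2 had 12.4 and 15.1 CPM. Mki67 had 0 UMIs in E3 ependymal-like cells and 10 UMIs, all in 1 cell, in E4. Cdk1, the mitotic kinase, had 0 UMIs in E3 and 6 in E4. The helicase gene Mcm4 was also high, at 52.6 and 48.7 CPM against 58.0 and 56.4 CPM in neuroprogenitor-like cells, and Mcm4 was found in 24 of the 34 called ependymal-like cells.

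Depth moved with these calls. The called ependymal-like cells had a median of 32832 UMIs against 8613.5 in the others of the class. With each cell thinned to 2000 UMIs and 19 E3 and 21 E4 shallower cells of the class left out, 0 of 173 E3 and 1 of 169 E4 ependymal-like cells met the call. Single genes were still found after thinning. Cenpf was found in 5.20% of E3 and 5.33% of E4 ependymal-like cells, and Kif11 in 2.89% and 7.69%. At the same depth Cenpf was found in 0.451% of E3 and 0.256% of E4 astrocyte-like cells, in 1 of 837 E3 and 0 of 1188 E4 endothelial-like cells, and in 16.9% and 17.9% of neuroprogenitor-like cells. Without Cenpf, Kif11, Plk1 and Tpx2, a set chosen after the values were seen, the call was met by 0 of 192 and 1 of 190 ependymal-like cells but still by 61 of 306 and 78 of 346 neuroprogenitor-like cells. Neuroprogenitor-like called cells were deeper too, with a median of 10062 UMIs against 3320 in the rest of the class. Of the 143 called neuroprogenitor-like cells, 1 was marked by the doublet score, and of the called cells of the ependymal-like, microglia-like and cluster 22 cells none was.

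**Figure D2:**
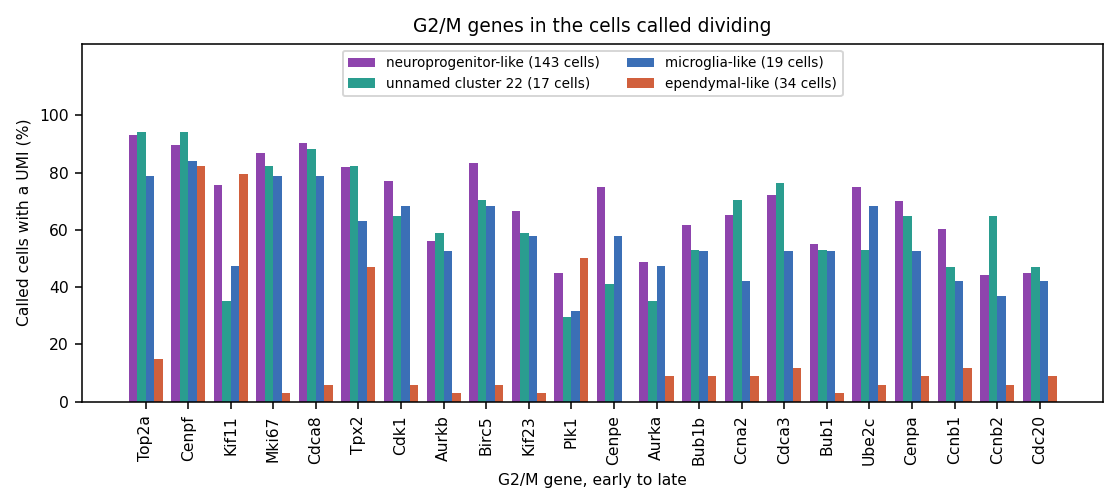
Percent of called cells with a UMI of each of the 22 G2/M genes (vertical axis, percent; genes from early to late on the horizontal axis), with 1 bar colour for each of the neuroprogenitor-like, cluster 22, microglia-like and ependymal-like cells. Mki67 is held by 124 of 143 neuroprogenitor-like and 15 of 19 microglia-like called cells, while the 34 ependymal-like cells hold Cenpf and Kif11 in 28 and 27 cells and Mki67 in 1.

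Levels of the genes per class followed the same pattern. Of the 40 genes, 38 were highest in neuroprogenitor-like cells in both libraries, among them all 22 G2/M and all 14 G1/S genes. For Mcm4 and Ccne1 in both libraries, and for Ccne2 and Cdc6 in E3, the interval overlapped that of the next named class. Wide intervals of the small mural-like class and of the numbered clusters overlapped it for further genes, such as Cdc45 and Mcm2 in E3. Top2a, the topoisomerase that untangles DNA, was at 779 CPM (E3) and 788 CPM (E4) in neuroprogenitor-like cells. The next class by Top2a was cluster 22, at 169 and 112 CPM. Mki67 (chr7:135689784-135716361 on GRCm38, minus strand) was at 327 and 391 CPM in neuroprogenitor-like cells. Ube2c, the ubiquitin carrier of late mitosis, was at 434 and 465 CPM in these neuroprogenitor-like cells. Within the class the called cells held 83.1% of all Ube2c UMIs and 81.0% of all Top2a UMIs of both libraries, and between 54.7% and 83.1% for each of the 22 G2/M genes. The cells were called by these genes, so such high shares follow in part from the call.

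For most G1/S genes a smaller share of the UMIs lay in called neuroprogenitor-like cells. The call used the G2/M genes and not the G1/S genes, so this contrast follows in part from the call. Called neuroprogenitor-like cells held 8.31% of all Pcna UMIs, 8.58% of Mcm4 and 11.6% of Mcm3, but 66.4% of Rrm2, the regulated subunit of ribonucleotide reductase. Pcna was at 200 CPM (E3) and 218 CPM (E4) in neuroprogenitor-like cells, and still at 86.9 and 88.3 CPM in oligodendrocyte-like cells, where 3 of 1611 cells were called. Of the G2/M genes, Cenpa and Kif23 had a low level in endothelial-like cells, at 8.48 and 11.2 CPM for Cenpa and 11.1 and 9.37 CPM for Kif23, while Mki67 had 0 and 2 UMIs there. Cdk1 in choroid plexus-like cells was at 7.31 and 6.16 CPM, with Mki67 at 1 and 0 UMIs.

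The D cyclins divided the cell types between them. Ccnd2 was at 3939 CPM (E3) and 4378 CPM (E4) in neuroprogenitor-like cells, with a UMI in 91.2% and 90.8% of them. Cluster 22 followed at 701 and 882 CPM. In microglia-like cells Ccnd2 was at 6.1 and 6.52 CPM, its lowest level among the named classes but for the erythroid-like class in E4. Astrocyte-like cells had 106 and 89.4 CPM of Ccnd2 and choroid plexus-like cells 245 and 204 CPM.

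Ccnd1 was highest in macrophage-like cells, at 171 CPM (E3) and 195 CPM (E4), and next in microglia-like cells, at 134.5 and 169.5 CPM, and in E4 the intervals of these classes overlap. Neuroprogenitor-like cells had 15.5 and 24.6 CPM of Ccnd1, astrocyte-like cells 12.9 and 10.5 CPM and ependymal-like cells 14.6 and 9.41 CPM. Ccnd3 was highest in meningeal-like cells, at 157 and 165 CPM, then in endothelial-like cells, at 119 and 137 CPM, and neuroprogenitor-like cells had 22.6 and 29.4 CPM. The D cyclins of called cells were those of their class. Of 143 called neuroprogenitor-like cells 142 held Ccnd2, 17 held Ccnd1 and 32 held Ccnd3, while of 19 called microglia-like cells none held Ccnd2, 7 held Ccnd1 and 6 held Ccnd3. In cluster 22 all 17 called cells held Ccnd2 and 9 held Ccnd1.

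**Figure D3:**
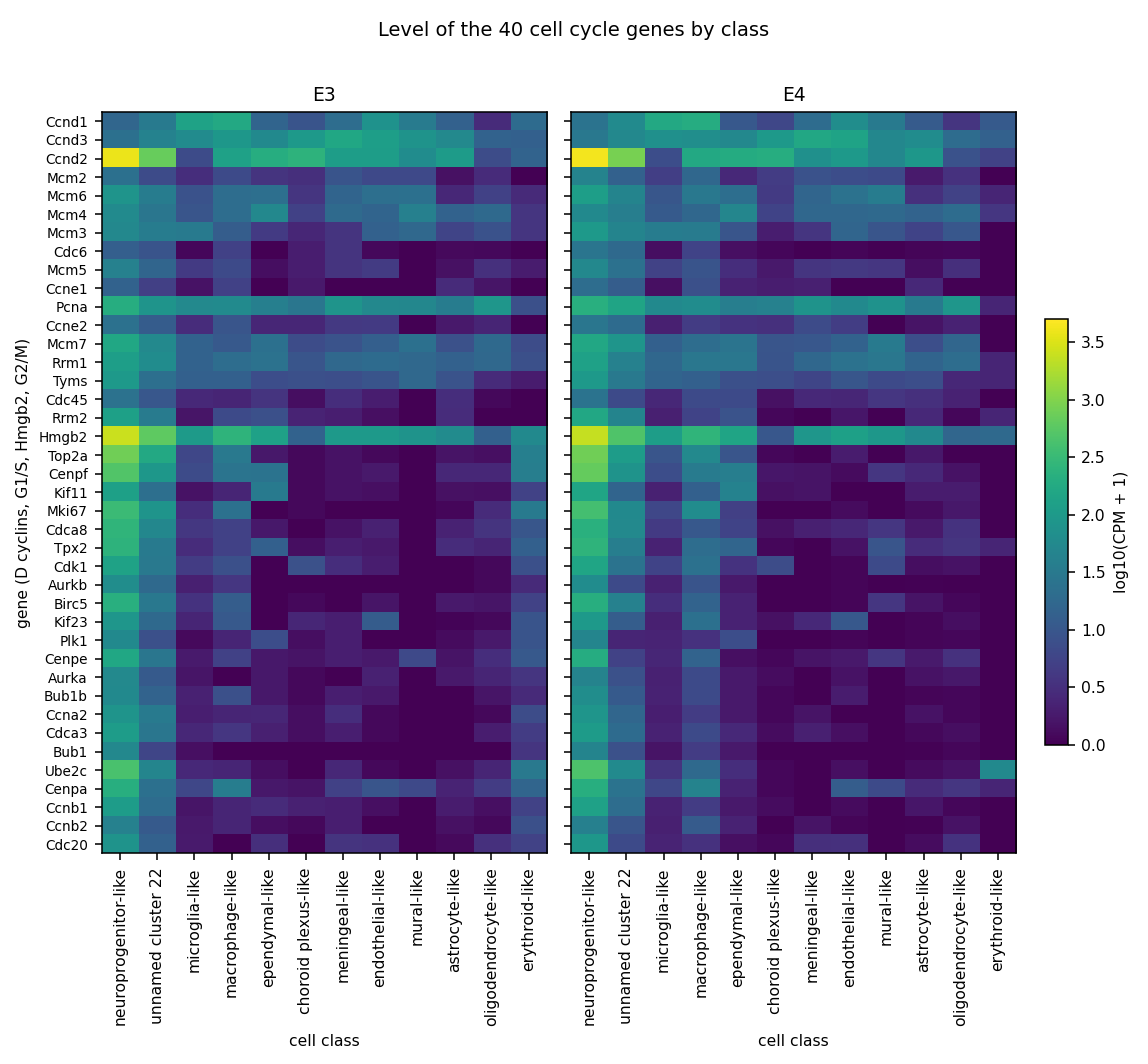
Level of the 40 genes in each class and library (colour, log10 of CPM + 1; E3 and E4 as separate panels), with genes in rows by group and classes in columns. The G2/M and G1/S genes are highest in neuroprogenitor-like cells in both libraries, and Ccnd1 and Ccnd3 are highest in macrophage-like and meningeal-like cells.

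Cyclin-dependent kinase inhibitors, from a list of related genes, differed in the class where they were highest. Cdkn1a, which encodes p21, was at 661 CPM (E3) and 633 CPM (E4) in endothelial-like cells. Cdkn1c, which encodes p57, was at 427 and 465 CPM in choroid plexus-like cells and at 300 and 308 CPM in meningeal-like cells. Cdkn1b, which encodes p27, was highest in neuroprogenitor-like cells, at 312 and 292 CPM, as was the kinase gene Cdk4 at 415 and 434 CPM. The INK4 genes Cdkn2c, at 78.0 and 70.4 CPM, and Cdkn2d, at 102.5 and 111.4 CPM, were highest there too. Cdkn2a had at most 10 UMIs in any class of either library. Cdkn1a and Cdkn1c were named after their values were seen.

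Phase order was read from the cells with at least 3 G2/M or at least 5 G1/S genes. For each gene, the share of G1/S UMIs among the G1/S and G2/M UMIs of the other genes was averaged over the cells that held it, so that a high value is early and a low value is late. The 14 G1/S genes had positions of 39.8 to 62.0%, with a median of 55.7%, and the 22 G2/M genes had positions of 15.1 to 35.7%, with a median of 22.7%. The cells were picked by these genes and the scale is built from their groups, so the gap between the groups follows in part from the method. The order over all classes took in 51 ependymal-like, 37 microglia-like and 27 cluster 22 cells beside 166 neuroprogenitor-like cells. The order within each group changed in part when neuroprogenitor-like cells were taken alone, so over all classes it is not a pure order of phase.

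Within the G1/S group, over the cells of all classes, the helicase subunit genes Mcm2 (62.0%), Mcm6 (60.9%), Mcm4 (59.5%) and Mcm3 (59.3%) came first, with Cdc6 at 57.9% and Ccne1 at 56.8%. Pcna was at 54.6% and Ccne2 at 53.2%. Tyms (47.8%), Cdc45 (46.3%) and Rrm2 (39.8%) came last of the group. In neuroprogenitor-like cells alone Cdc6 (57.9%) and Ccne1 (55.5%) came before Mcm2 (53.8%), Mcm6 (49.03%), Mcm4 (49.01%) and Mcm3 (48.8%), and with each cell thinned to 2000 UMIs Cdc6 was the first of the group, at 60.8%.

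Within the G2/M group Top2a (35.7%), Cenpf (33.7%), Kif11 (32.4%) and Mki67 (29.4%) were the earliest over the cells of all classes. In neuroprogenitor-like cells alone Kif11 was at 23.2%, later than Cdca8 (29.0%), Tpx2 (24.0%) and Cenpe (23.7%). Over all classes Cdk1 was at 27.0%, Aurkb at 25.5% and Ccna2 at 21.95%. Ube2c (19.8%), Cenpa (19.7%), Ccnb1 (18.3%), Ccnb2 (16.1%) and Cdc20 (15.1%) were the latest. Of the genes in neither group, Ccnd1 (69.6%) and Ccnd3 (66.1%) lay earliest of all, and Ccnd2 (48.8%) and Hmgb2 (47.9%) lay in the middle. In neuroprogenitor-like cells alone Ccnd1 was still the earliest, at 63.6% over 24 cells, and Ccnd3 was at 51.0% over 42 cells.

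All 14 G1/S genes lay above all 22 G2/M genes in the cells of E3 alone and in those of E4 alone, and 13 of the 14 did after thinning and in microglia-like cells alone. Within the groups the order differed between the libraries, and in the E3 cells of all classes Ccnb2 (16.7%) was the latest gene, with Cdc20 at 18.6%. In neuroprogenitor-like cells alone the G1/S genes spanned 32.6 to 56.9% and the G2/M genes 10.9 to 27.5% in E3. In E4 the spans were 38.6 to 60.7% and 9.76 to 37.9%, and in this class Cdc20 was the latest in both libraries, at 10.9 and 9.76%.

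**Figure D4:**
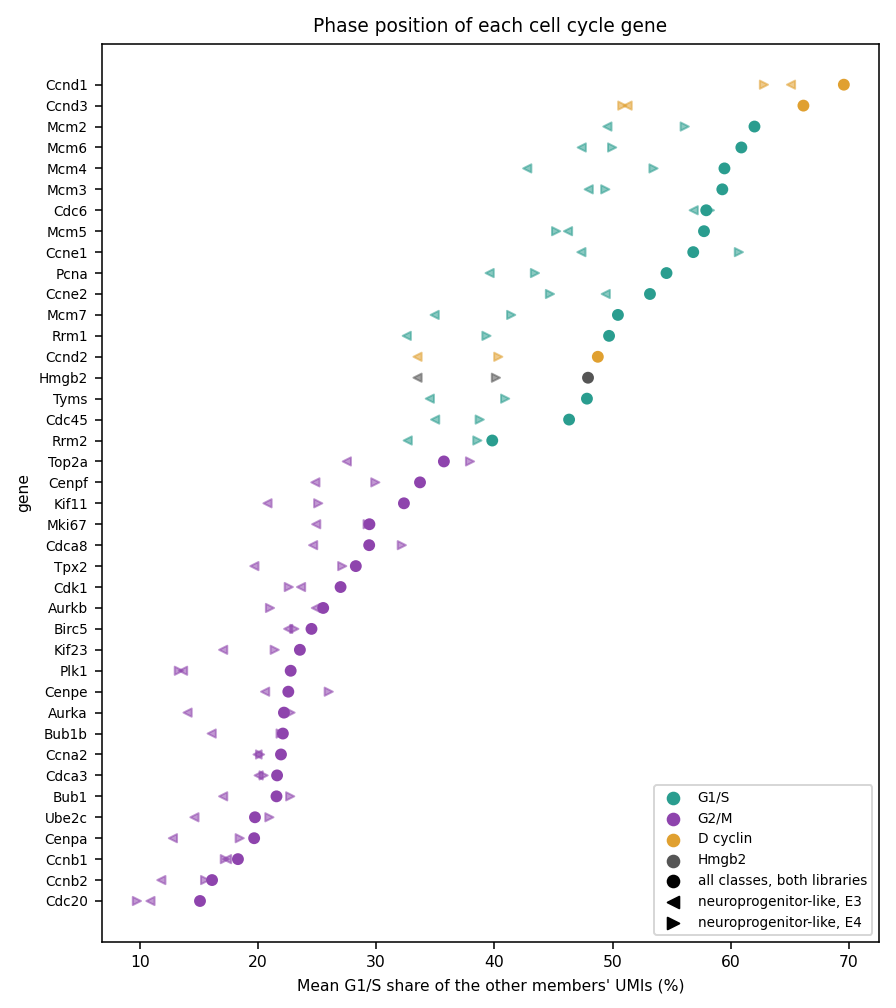
Position of each gene as the mean percent of G1/S UMIs in the cells that hold it (horizontal axis, percent, high is early). Groups are in colour, circles are for all classes of both libraries and triangles for neuroprogenitor-like cells of E3 and of E4. Over all classes, whose mix of cells bears on the order, Mcm2 leads the G1/S genes at 62.0% and Cdc20 is last at 15.1%.

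Pairs of genes were counted in the 166 neuroprogenitor-like cells of the order. Of 65 cells with Cdc20, 58 also held Ccnb1 (89.2%). Of 86 cells with Ccnb1, 80 held Cdk1 (93.0%). Of 42 cells with Cdc6, 5 held Cdc20 (11.9%), while Cdc20 was held by 39.2% of all 166 cells. Of 49 cells with Ccne2, 47 held Top2a, which 138 of the 166 cells held (83.1%). Of 44 cells with Ccne1, 15 held Ccnb1 (34.1%), against 51.8% of all the cells. Mcm5 was held by 38 of the 49 cells with Ccne2 (77.55%), against 50.6% of all the cells. Ccnb1 was held by 73 of 93 cells with Ccna2 (78.5%), against 51.8% of all. Among the pairs near the share of all the cells were Ccnb1 in 26 of the 49 cells with Ccne2 (53.1%) and Plk1 in 31 of 84 cells with Mcm5 (36.9%, against 38.6% of all).

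The cells spread along the order in both libraries. Among the neuroprogenitor-like cells of the order, those with under 25% G1/S UMIs, the late end, were 39 of 70 in E3 (55.7%, 43.3 to 67.6%) and 41 of 96 in E4 (42.7%, 32.7 to 53.2%). Those with over 75%, the early end, were 12 of 70 in E3 (17.1%, 9.18 to 28.0%) and 24 of 96 in E4 (25%, 16.7 to 34.9%). The intervals overlap at both ends, and no shift between libraries was detectable at this depth. The median depth of the cells was alike at both ends, at 9316 UMIs for the late and 9949 UMIs for the early cells. Microglia-like cells of the order lay more at the early end, with 20 of 37 cells (54.1%, 36.9 to 70.5%) over 75%, and 19 of the 37 met the G2/M call. The other microglia-like cells entered by at least 5 G1/S genes alone, which places a cell toward the early end. The early excess therefore follows in part from the rule of entry.

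Levels of the 40 genes were next compared between E4 and E3 as the log2 ratio of CPM, with genes of at least 50 UMIs over both libraries and a 1.5-fold change as the size to be named. Over all cells 34 of the 40 genes were higher in E4, where 58.9% of 16277 genes were higher. Past 1.5-fold, 1 of the 40 was higher in E4 (1.66% of all genes tested) and 0 were lower (2.56% of all genes tested). The gene was Mcm2, with 163 UMIs (3.02 CPM) in E3 and 326 UMIs (4.82 CPM) in E4, a log2 ratio of 0.68 (0.40 to 0.96). The median log2 ratio was 0.21 for the G1/S genes and 0.08 for the G2/M genes, and 0.04 for all genes.

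Within neuroprogenitor-like cells, 4 of the 40 were past 1.5-fold higher in E4 (6.5% of 7748 genes tested) and 0 were lower (1.96%). Cdc6 went from 12.2 CPM in E3 to 26.5 CPM in E4, a log2 ratio of 1.11 (0.34 to 1.95). Mcm2 went from 22.6 to 43.9 CPM, a log2 ratio of 0.96 (0.38 to 1.57). Mcm3 went from 52.2 to 95.0 CPM, a log2 ratio of 0.86 (0.48 to 1.26). Ccnd1 had 24 and 51 UMIs, and its interval reached below 0 (0.67, -0.06 to 1.43). The 4 genes are 3 of the G1/S group and a D cyclin. Their share of the 40 was above the 6.5% of all genes past the same line. With only 4 genes and 1 library per genotype, no pattern by group is read from them. The median log2 ratio was 0.31 for the 14 G1/S genes, 0.05 for the 22 G2/M genes and 0.07 for all genes of the class.

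The counts of higher and lower genes were also taken in the called neuroprogenitor-like cells alone. There, of the G2/M genes 9 were higher and 13 lower in E4, against 14 and 8 in the whole class. Of all members tested 20 were higher and 18 lower, against 29 and 11. Beside these counts, 56.8% of 4682 genes were higher in E4 in the called cells and 60.3% of 7748 genes in the whole class. Of 38 genes with enough UMIs, 4 were past 1.5-fold higher (8.67% of 4682 genes tested) and 0 lower (2.93%). The values in parentheses below are log2 ratios with their intervals. Past 1.5-fold were Cdc6, Mcm2 and Mcm3 again, and Mcm6, at 133 CPM in E3 and at 206 CPM in E4 (0.63, 0.26 to 1.02). The G1/S median was 0.22 and the G2/M median -0.10, with 0.05 for all genes. Some abundant genes differed by less than 1.5-fold with intervals clear of 0. Ccnd2 was at 4404 CPM in E3 and at 5336 CPM in E4 (0.28, 0.21 to 0.34). Hmgb2 was at 5939 CPM in E3 and at 4921 CPM in E4 (-0.27, -0.33 to -0.21). Top2a was at 1909 CPM in E3 and at 1727 CPM in E4 (-0.14, -0.25 to -0.04). Cenpf was higher in E4 (0.25, 0.12 to 0.38) and Cdca8, a subunit of the chromosomal passenger complex, was lower (-0.39, -0.59 to -0.19).

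In microglia-like cells, 4 of the 21 genes with enough UMIs were past 1.5-fold higher in E4 (1.8% of 11232 genes tested) and 0 were lower (1.36%). Mki67 had 23 UMIs (2.004 CPM) in E3 and 84 UMIs (5.16 CPM) in E4. Top2a had 60 and 139 UMIs and Mcm2 24 and 63. Ube2c had 19 and 42 UMIs, and the interval of its log2 ratio held 0 (0.64, -0.17 to 1.51). The 6 called cells of E3 held 21 of the 23 Mki67 UMIs, and the 13 called cells of E4 held 82 of the 84. Mcm2 lay elsewhere, since cells not called held 22 of its 24 UMIs in E3 and 61 of its 63 in E4. Ccnd1 of microglia-like cells was at 134.5 CPM (E3) and 169.5 CPM (E4), a log2 ratio of 0.33 (0.24 to 0.42).

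In ependymal-like cells 12 genes had enough UMIs, and 1 was past 1.5-fold higher in E4 (3.21% of 9805 genes tested) and 1 lower (2.72%). Cenpf was the higher one, with 67 and 92 UMIs (0.62, 0.15 to 1.10). Ccnd1 was the lower one, with 40 and 23 UMIs and an interval that reached above 0 (-0.63, -1.44 to 0.14). In all cells that were not called, 31 of the 40 genes had enough UMIs, of which 2 were higher (1.55% of 16119 genes tested) and 1 was lower (2.34%). Ccnb1 was the lower one, with 46 UMIs in E3 and 20 in E4 (-1.53, -2.37 to -0.75). Top2a and Bub1b were the higher ones, with 21 and 46 UMIs for Top2a. These are what the call left over, at no more than 2 G2/M genes a cell.

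**Figure D5:**
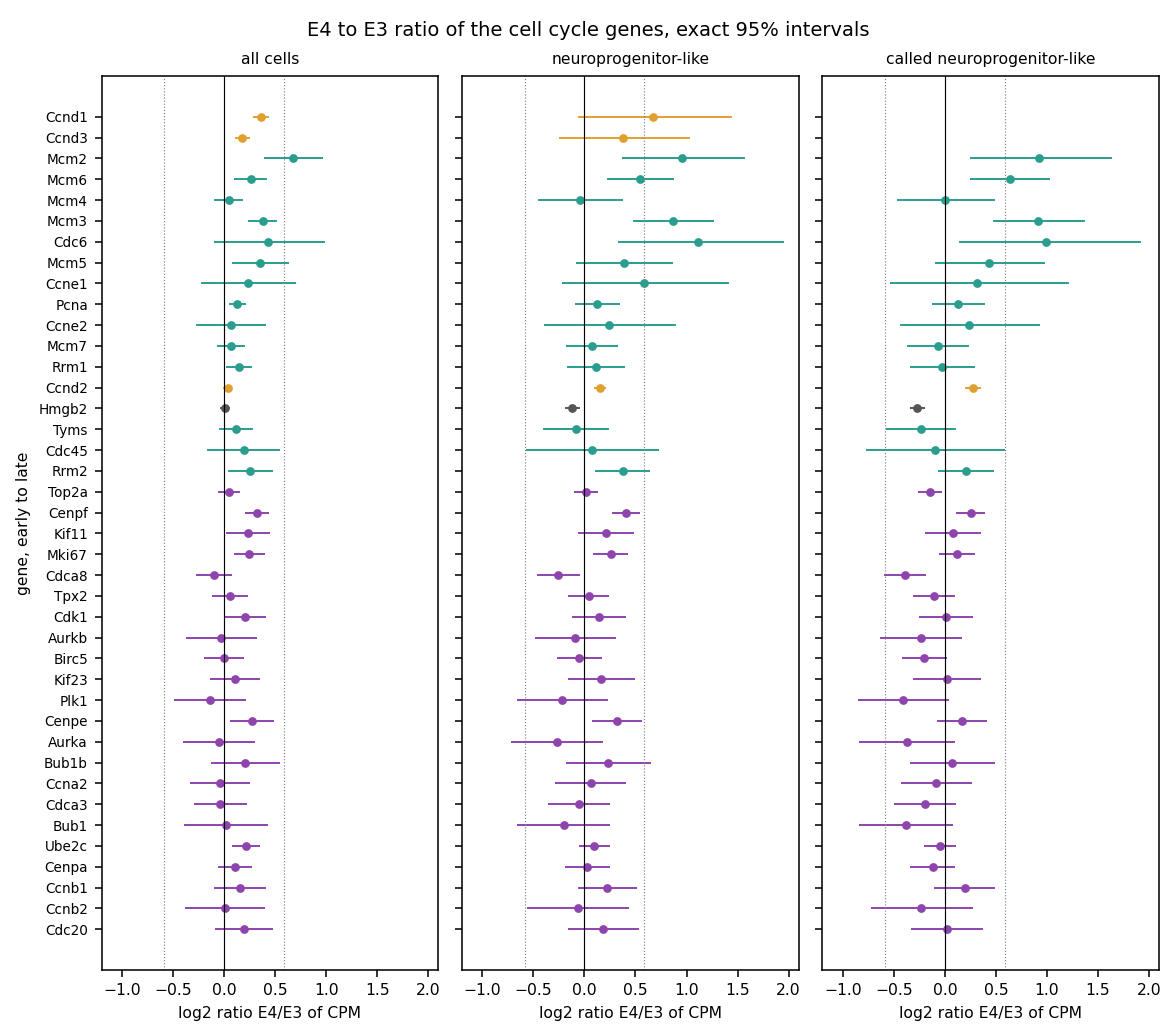
Log2 ratio of E4 to E3 CPM for each gene (horizontal axis; bars are 95% intervals of the split of counts) over all cells, in neuroprogenitor-like cells and in those of them called dividing, with dotted lines at 1.5-fold; genes under 50 UMIs are left out of a panel. Mcm2, Mcm3, Cdc6 and Ccnd1 lie past the line on the higher side in neuroprogenitor-like cells, and no gene of the panels lies past it on the lower side.

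Genes outside the 40 that called neuroprogenitor-like cells shared were sought as those at least 2-fold higher in called than in other cells of the class in both libraries, which held for 6.32% of 7748 genes, and 7.5% were at least 2-fold lower. The cells had been called with the 22 G2/M genes, so nothing is read from those. The 14 G1/S genes, which the call did not use, were all at least 2-fold higher, for example Rrm2 at 297 against 10.9 CPM in E3 and 342 against 19.4 CPM in E4. Hmgb2 was at 5939 against 246 CPM in E3 and 4921 against 261 CPM in E4. None of the 3 D cyclins was, and Ccnd2 was at 4404 against 3618 CPM in E3 and 5336 against 3589 CPM in E4.

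A wider list of mitosis genes had 49 of 50 tested members at least 2-fold higher, with Pttg1, the securin, as the exception. Of these, Smc4, a condensin subunit, was at 834 against 70.8 CPM in E3 and 866 against 80.0 CPM in E4. Prc1, a midzone protein, was at 848 against 4.36 CPM in E3 and 810 against 5.28 CPM in E4. A wider list of replication genes had 34 of 38. Dut, which keeps uracil out of DNA, was at 663 against 88.2 CPM in E3 and 624 against 69.5 CPM in E4.

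Regulators behaved less evenly. Of the wider transcription regulators 9 of 14 tested were at least 2-fold higher, and of the wider kinases and phosphatases 8 of 16, with Cks1b at 377 against 31.6 CPM in E3 and 302 against 26.4 CPM in E4. Cdk4 was under 2-fold, at 549.5 against 322 CPM in E3 and 586 against 309 CPM in E4. Of 8 tested inhibitors and pocket proteins 3 were higher, the INK4 genes Cdkn2c and Cdkn2d among them. Cdkn2d was at 199 against 35.9 CPM in E3 and 196 against 41.3 CPM in E4. Cdkn1b was at 325 against 303 CPM in E3 and 299 against 287 CPM in E4, and the interval of the log2 ratio of called to other cells held 0 in both (-0.16 to 0.37 in E3, -0.18 to 0.29 in E4).

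The dividing cells also differed in their stage markers. Of 12 neuroblast genes none was higher and 4 were lower. Dcx, the doublecortin of migrating neuroblasts, was at 287 against 740 CPM in E3 and 306 against 838 CPM in E4. Stmn2 was at 712 against 2235 CPM in E3 and 749 against 2066 CPM in E4. Sox11 was alike, at 2061 against 1939 CPM in E3 and 2446 against 2587 CPM in E4. Of 5 tested neural stem genes Fabp7 was higher and Slc1a3, a glutamate transporter of glia, was lower.

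Outside all lists, the highest ratios belonged to Hist1h3c, Mxd3, Hist1h3b, Hist1h2af, Mns1, Depdc1a, Ska1, Spdl1, Kifc1 and Pclaf. Hist1h3c, a replication-dependent histone gene, had 450 UMIs in called and 0 in other E3 cells, which is at least 218-fold higher against a floor of 3 UMIs. Pclaf, a partner of Pcna, was the most abundant, at 1191 against 22.9 CPM in E3 and 1247 against 32.5 CPM in E4. Ska1, a kinetochore protein gene, was found in 39.3% of called E3 and 45.1% of called E4 cells and in none of the others. A call with at least 5 G2/M genes gave the same 10 genes.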

How the data were processed

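The deposited matrices held raw UMI counts per gene and cell barcode, which the authors made with Cell Ranger (6.1.2 for E3, 6.1.1 for E4, per the file headers) on mm10, and they had not been normalized. The study's stated filter (50 to 50000 UMIs, at most 30% mitochondrial) kept 11288 of 11485 E3 and 13528 of 13802 E4 barcodes; the study states fewer cells for its plots, by a step not given in the sources used here. The barcodes held 56415229 and 71625170 UMIs.

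Counts were scaled to 10000 per cell, logged, reduced to 2000 variable genes without 282 cell cycle and histone genes and 20 components, and clustered with Leiden (resolution 1, 15 neighbours). A name needed 3 markers at 2-fold and in 20% of cells; these thresholds were set after clusters were seen. A second class at 75% of the best score made a cluster mixed. Clusters with over 40% doublets, by a score on 2 simulated doublets per cell that marked 3.14% of E3 and 3.98% of E4 cells, were left out of the classes; called doublets elsewhere stayed. Classes were rebuilt here, so shares may differ from the study's.

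The members and lists were chosen with earlier results of these data known. CPM, shares and log2 ratios have exact Poisson, binomial and binomial-split intervals, for counting error. No test was run, as each genotype was 1 library. Named were all 40 members, up to 4 of each wider list by UMIs in dividing cells, stage markers, and the 10 unlisted genes of highest ratio with at least 50 UMIs; Pttg1 was named after its value was seen. Part of the stage marker results is not reported here. Ratio and order scripts were tested on simulated data. Gene identities were matched to GENCODE vM21 (32158 of 32285), promoters come from RefSeq GRCm38.p6. Tools were Python 3.11.15, numpy 2.4.6, scipy 1.17.1, pandas 2.3.3, scikit-learn 1.9.0, igraph 0.11.9 and matplotlib 3.10.9. Alternatives covered the call, depth by thinning to 2000 UMIs, cell filters, doublets, clustering, totals, class mix and promoter window.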

Additional observations from a re-analysis of the deposited data

Results flagged for a closer look

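Barcodes over the limit of 50000 UMIs, which took no part in the comparisons, held many cells that met the call for dividing. In E3 9 of 33 such barcodes met it (27.3%, 13.3 to 45.5%) and in E4 9 of 57 (15.8%, 7.48 to 27.9%), against 0.930% and 0.976% of the cells that were kept. Depth alone raises the chance of 3 G2/M genes in a barcode, and its part in these calls was not tested.

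For 3 genes the E4 to E3 log2 ratio had intervals on opposite sides of 0 in different classes, and the difference between classes was not tested. Ccnd1 was higher in E4 in microglia-like cells (0.33) and lower in endothelial-like cells (-0.25). Ccnd2 was higher in E4 in neuroprogenitor-like cells (0.15) and lower in astrocyte-like (-0.25) and endothelial-like cells (-0.24). Hmgb2 was higher in E4 in microglia-like (0.13) and endothelial-like cells (0.35) and lower in neuroprogenitor-like cells (-0.12).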

How the results depend on the processing

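No paired analysis was possible because each genotype was 1 library. Of 143 alternative values of main results, 117 stayed and 26 moved. Shares stayed if within the main interval, and counts if within 1.5 times. Median log2 ratios stayed if within a standard deviation of the ratios of their genes. Of single-gene ratios 74 stayed within the main interval and 11 moved. None of all these values reversed. The ependymal-like share moved most, to 23.4% in E3 and 23.2% in E4 with at least 2 G2/M genes, 1.56% and 0.526% with at least 5, 0 and 0.592% after thinning, and 0 and 0.526% without Cenpf, Kif11, Plk1 and Tpx2. With all variable genes in the clustering the share of microglia-like cells was 0.0328% (E3) and 0.109% (E4). With at least 2 genes the E3 macrophage-like share was 4.55%. The library share was 1.63% (E3) and 1.72% (E4) with at least 2 genes, 0.726% and 0.761% with at least 5, and 0.753% and 0.813% without the 4 genes. In E4 it was 0.795% after thinning and 1.16% in cells of at least 1000 UMIs and at most 15% mitochondrial. The count of members past 1.5-fold higher in E4 over all cells was 1, and it was 2 after thinning, 4 in neuroprogenitor-like cells alone and 2 in cells not called, where 1 was lower. In the 200 bases before the start a CHR form was in 57.9% of G2/M and 18.3% of all promoters, and E2F letters were in 8.25% of all. The 18-gene call, cells not called and neuroprogenitor-like cells alone were chosen after seeing the data.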
